A study of Mus musculus with 24 samples.

Results

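The sarcomere scaffold genes described here are 39 genes that code for titin and other thick filament scaffolds, M-band proteins, Z-disc proteins, ankyrin-repeat and Xin-repeat proteins, pointed-end caps of the thin filament, intermediate filament and costamere proteins, and 2 helpers of myosin assembly. They were listed by gene symbol according to the known place of their products, with earlier results of these data known, and all 39 were found among the 43432 gene identifiers of the count table. Hearts of C57BL/6 mice were sequenced as total RNA in 24 libraries, 4 for each of 6 groups. The 6 groups were sedentary mice (Sedentary), mice given 8 weeks of wheel running (Running), mice 2 weeks (TAC-LVH) and 8 weeks (TAC-HF) after transverse aortic constriction, and a sham-operated group for each of these (Sham-LVH and Sham-HF). Transverse aortic constriction (TAC) narrows the aorta and makes the left ventricle pump against a raised pressure. LVH and HF in the group names are the submitters' marks for left ventricular hypertrophy and heart failure, and no measure of heart size or function is among the data used here. Sex and age are not in the labels, nor is the time between sham operation and collection. They do not say whether the 4 hearts of a group came from separate litters or cages, so the p-values measure only the spread between these samples.

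In striated muscle the sarcomere is bounded by Z-discs, in which alpha-actinin crosslinks the barbed ends of the actin filaments. Titin runs from the Z-disc to the M-band, where myomesins and obscurin-family proteins hold the myosin filaments in register. Several Z-disc, titin-binding and intercalated disc proteins, among them muscle LIM protein, the muscle ankyrin repeat proteins and the Xin-repeat proteins, are known from other work to respond to mechanical load or to link the sarcomere to the membrane.

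The libraries held 16802939 to 39512101 counts each, of which 50.7% to 73.6% lay in 37 mitochondrially encoded genes, leaving 5949640 to 12932067 counts for all others. The members took 8.34% to 11.8% of the counts outside the mitochondrial genes, and Ttn alone took 5.78% to 8.75%. Levels are given below as CPM, counts scaled to a library total of 1000000 adjusted by TMM factors, and a gene was called higher or lower at an adjusted p under 0.05 (edgeR, adjusted over all genes tested). In the TAC hearts the summed level of 12 cardiomyocyte markers was lower, at 16110 to 20590 CPM in TAC-LVH against 29100 to 34360 CPM in Sham-LVH, and at 23040 to 24870 CPM in TAC-HF against 30620 to 34340 CPM in Sham-HF. Of these markers 10 of 12 fell at 2 weeks, and 5 fell and 1 rose at 8 weeks. The largest part of each sum was Myh6, with means of 5409 CPM in TAC-LVH and 11050 CPM in Sham-LVH. Its means were 7006 CPM in TAC-HF and 12140 CPM in Sham-HF. Because Myh6 is itself a load-responsive reference gene below, the sums are no measure of cardiomyocyte content alone. The 9 fibroblast markers summed to 2159 to 3450 CPM in TAC-LVH against 517.5 to 751.2 CPM, and to 1091 to 1631 CPM in TAC-HF against 441 to 600.2 CPM, with 9 and 7 of the 9 called higher. Of 8 macrophage and monocyte markers 8 were called higher at 2 weeks and 7 at 8 weeks. Of 8 endothelial markers 5 were called higher at 2 weeks and 0 at 8 weeks. For every member below, fewer cardiomyocytes and less RNA per cardiomyocyte cannot be told apart in these bulk samples, and the part of this shift in cell markers in the members' results was not tested. Smooth muscle also expresses Des, Pdlim3, Pdlim7, Vcl and Flnc. The 10 smooth muscle and pericyte markers summed to 630.9 to 669 CPM in TAC-LVH against 496.4 to 556.9 CPM. In TAC-HF they summed to 482.5 to 548.3 CPM against 472.6 to 542.2 CPM. 4 and 2 of the 10 were called higher. Most of each sum was Rgs5, with means of 444 CPM in TAC-LVH and 361.6 CPM in Sham-LVH, so the sums are no measure of smooth muscle alone. Signal of atrial cardiomyocytes was low: 5 markers (without Nppa) summed to 9.31 to 44.5 CPM over all 24 libraries. How much atrial tissue the samples held was not tested.

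A single control library stood apart. Sham-HF replicate 1 had Xirp1 at 587 CPM against 117 to 201 CPM in the other 3 hearts of its group, and it also had the highest Ankrd1, Ankrd23, Fhl1, Flnc, Synpo2l, Unc45b and Xirp2 of that group. The same library was highest of its group for Ankrd2, Csrp3, Des, Lmod2, Myom1, Nrap, Pdlim3, Pdlim5, Pdlim7, Speg, Synpo2 and Vcl. The heat shock protein genes Hspa8 and Hsp90aa1 stood at 1223 and 221 CPM in this library, against 584 to 798 and 57.1 to 89.4 CPM in the others. It was also the library with the most skeletal muscle signal: 11 markers (without Mybpc2) summed to 9.19 CPM there, against 0.534 to 1.81 CPM in the other 23 libraries, and Myh4, a fast skeletal myosin, was at 4.32 CPM. Whether this library's members were moved by these differences was not tested, and results of the 8-week comparison are given with and without it where that changed a call.

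For 33 of the 39 members the RefSeq promoter table (GRCm38.p6) holds at least 1 window of 300 bases, from 250 before to 50 after the gene's start. The CArG box, bound by serum response factor, matched on either strand in 6 of these 33 members (18.2%) and in 1.81% of the 27025 genes of the table. The 7 matching sites lie upstream of Fhl1, Fhl2 (2 windows), Ldb3, Myom1, Nebl and Vcl and are shown because among the 5 motifs searched this one differed most in share between the members and all promoters. The capitals mark the match, and each line runs 5′ to 3′ on the gene's strand.
Fhl1 (chrX:56779571-56779600, +): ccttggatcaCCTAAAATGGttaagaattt
Fhl2, first window (chr1:43163973-43164002, -): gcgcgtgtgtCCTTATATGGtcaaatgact
Fhl2, other window (chr1:43196838-43196867, -): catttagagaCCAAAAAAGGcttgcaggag
Ldb3 (chr14:34588697-34588726, -): gggttacagtCCATTTATGGgcgcagcaag
Myom1 (chr17:71019448-71019477, +): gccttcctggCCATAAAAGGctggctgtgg
Nebl (chr2:17462999-17463028, -): gctcccatctCCTAAATTGGctggaaatgc
Vcl (chr14:20929161-20929190, +): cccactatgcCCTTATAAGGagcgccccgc

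Holding a CArG box went with no single direction of change: of these 6 genes Fhl1 rose after TAC, Fhl2, Ldb3 and Nebl fell at 1 or both times, and Myom1 and Vcl were not called. The MCAT box CATTCC, bound by TEAD factors, matched in 27.3% of the members and 16.6% of all genes. The GATA motif AGATAA matched in 18.2% and 12.7%, the E-box CANNTG in 78.8% and 75%, and the TATA box TATAAA in 18.2% and 15.7%, each on both strands. The upstream 250 bases are shown for the 2 genes with the largest rise at both times after TAC and for 2 of those that fell at both times, with MCAT and GATA matches in capitals.
Ankrd1 (chr19:36119845-36120094, -): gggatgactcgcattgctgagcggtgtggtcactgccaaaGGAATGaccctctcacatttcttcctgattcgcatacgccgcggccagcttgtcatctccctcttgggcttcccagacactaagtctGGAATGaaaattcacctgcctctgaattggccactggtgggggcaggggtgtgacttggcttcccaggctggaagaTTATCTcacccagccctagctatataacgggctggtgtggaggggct
Xirp2 (chr2:67445752-67446001, +): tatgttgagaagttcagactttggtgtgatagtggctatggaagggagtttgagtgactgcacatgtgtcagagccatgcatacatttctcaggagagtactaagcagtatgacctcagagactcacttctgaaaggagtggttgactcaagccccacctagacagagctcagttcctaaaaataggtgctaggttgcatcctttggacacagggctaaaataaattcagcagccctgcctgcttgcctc
Cmya5 (chr13:93144725-93144974, -): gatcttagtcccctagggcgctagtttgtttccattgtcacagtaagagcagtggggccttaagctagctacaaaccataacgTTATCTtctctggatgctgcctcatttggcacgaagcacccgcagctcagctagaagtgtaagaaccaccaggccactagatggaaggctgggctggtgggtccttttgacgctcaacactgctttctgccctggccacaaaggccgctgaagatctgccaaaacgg
Tmod1 (chr4:46038972-46039221, +): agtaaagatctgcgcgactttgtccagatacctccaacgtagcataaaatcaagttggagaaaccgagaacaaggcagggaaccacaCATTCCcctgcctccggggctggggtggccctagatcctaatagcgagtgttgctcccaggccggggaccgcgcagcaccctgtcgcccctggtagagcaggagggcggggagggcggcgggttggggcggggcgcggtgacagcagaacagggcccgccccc

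Ankrd1 held 2 MCAT matches and 1 GATA match in this stretch, Cmya5 1 GATA match and Tmod1 1 MCAT match. Xirp2 had none of these in its window, and none of the 4 had a CArG box there. A match is a stretch of letters and not a bound site.

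Per kilobase of exon the members spanned almost 4 orders of magnitude in control hearts. The highest means over the Sedentary, Sham-LVH and Sham-HF groups were those of Fhl2 (276 CPM per kb), Ttn (269.7), Mybpc3 (250.3, cardiac myosin binding protein C) and Tcap (235, telethonin, which caps titin's end in the Z-disc). Among these 4 genes the libraries' values overlapped, and Tcap alone ranged from 98.5 to 433 CPM per kb. Actn2 (alpha-actinin 2) followed at 166, Des (desmin) at 119 and Csrp3 (muscle LIM protein) at 109 CPM per kb. The lowest were Synm (0.932), Pdlim3 (0.788), Myom3 (0.172) and Ankrd2 (0.0340). Ankrd2 was too low for the count filter, with 0 to 3 counts in each of the 16 libraries outside TAC, so 38 of the 39 members were tested in each comparison. 12 members share exon bases with another annotated gene, mostly on the opposite strand, and the strand setting of the counting is not given in the sources used here: Tmod1 shares 32.6% of its exon bases with Tstd2 and Vcl 25.5% with Ap3m1, while Ankrd23 shares 78.2% with Gm42417 on its own strand.

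**Figure D1:**
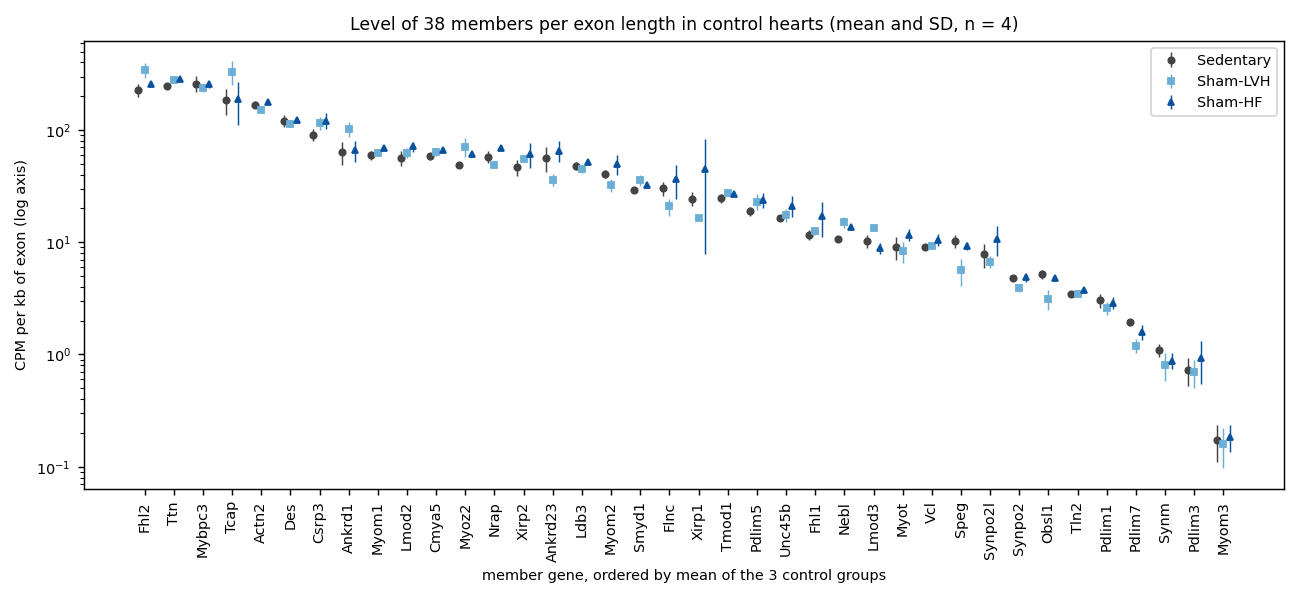
Level of 38 members in the control groups, in CPM per kb of exon on a log axis (points: group means, bars: SD of 4 libraries), ordered by the mean of the 3 groups. Fhl2, Ttn, Mybpc3 and Tcap stand at the top and Myom3 at the bottom, and Xirp1 and Fhl1 have long bars in Sham-HF.

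After 2 weeks of TAC 9 members rose and 12 fell of the 38 tested, against Sham-LVH. That is 55.3% of the members, beside 33.2% of all 14224 genes tested (17.1% higher and 16.1% lower), and the members' median log2 fold change was 0.03 beside -0.00 for all genes. After 8 weeks 14 rose and 6 fell against Sham-HF, 52.6% of the members beside 29.6% of 13621 genes (14.9% higher and 14.7% lower), with a median of 0.17 beside 0.00. Many members are abundant, while all genes tested reach down to the count filter. Here and below, the members' shares were not compared with those of genes at similar levels. The directions given are relative to the bulk of the genes. Without normalization factors the median of all genes moved to 0.41 at 2 weeks and 0.33 at 8 weeks, and 21 members were then higher and 2 lower (Cmya5 and Tcap) at 2 weeks, and 24 higher and 0 lower at 8 weeks. Without Sham-HF replicate 1 the 8-week counts were 18 higher and 6 lower, the 4 added genes being Flnc, Xirp1, Pdlim7 and Ankrd2. Ankrd2 is among these because it passed the count filter in that fit. It also passed and was called without Sham-HF replicate 2, 3 or 4 or TAC-HF replicate 2 (edgeR adjusted p 0.00125 to 0.00526). With 0 to 2 counts in each Sham-HF library and 8 to 14 in each TAC-HF library, it can have passed only through the TAC hearts. These calls of Ankrd2 therefore add no support for its rise. Each fall below holds for a gene's share among the scaled counts, and only the falls of Cmya5 and Tcap at 2 weeks were still called on raw library totals.

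**Figure D2:**
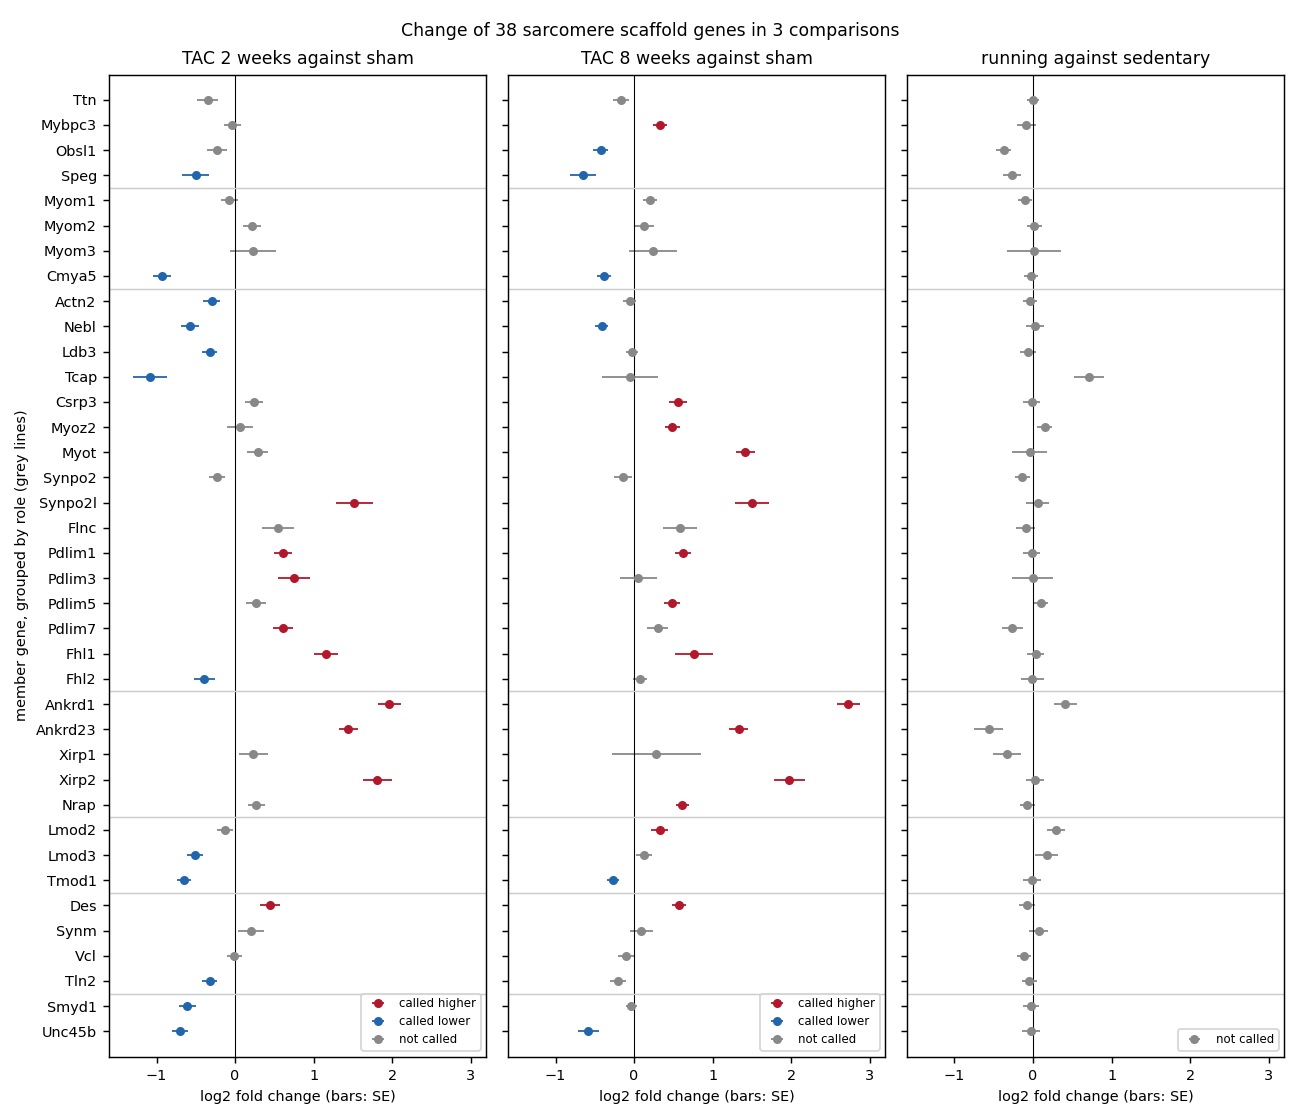
Log2 fold change of 38 members in TAC at 2 weeks, TAC at 8 weeks and running, each against its control group (points: edgeR estimates from 4 against 4 libraries, bars: SE), with grey lines between roles. Red points rose and blue points fell (adjusted p under 0.05): 9 and 12 at 2 weeks, 14 and 6 at 8 weeks, and 0 in running.

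Of the 5 tested genes with ankyrin or Xin repeats or of the same intercalated disc group, 3 rose at 2 weeks (Ankrd1, Ankrd23 and Xirp2) and 4 at 8 weeks (with Nrap), and 0 fell. Ankrd1, the cardiac ankyrin repeat protein CARP, stood at 1264, 978, 1068 and 1281 CPM in the TAC-LVH libraries and at 262, 288, 269 and 363 CPM in Sham-LVH. At 8 weeks the values were 1323, 1061, 1244 and 1436 CPM in TAC-HF and 252, 173, 164 and 175 CPM in Sham-HF. All 8 TAC hearts lay far above all 8 sham hearts. The log2 fold change was 1.96 (SE 0.142, edgeR adjusted p = 1.27e-06) at 2 weeks and 2.73 (SE 0.143, adjusted p = 1.33e-07) at 8 weeks, or 3.90-fold and 6.63-fold.

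Ankrd23, a related ankyrin repeat protein (DARP), reached 269, 228, 261 and 293 CPM in TAC-LVH against 96.9, 87.4, 90.5 and 113 CPM, and 455, 421, 469.6 and 436 CPM in TAC-HF against 225, 161, 183 and 139 CPM. The groups did not overlap at either time, with rises of 1.44 (SE 0.117, adjusted p = 2.47e-06) and 1.33 (SE 0.124, adjusted p = 7.36e-06) on the log2 scale. Because most of its exon bases are shared with Gm42417, an identifier not in the count table, its level may include reads of that gene. Ankrd2, the remaining member of this family, is best known from skeletal muscle. It had 0, 0, 1 and 0 counts in Sham-LVH and 3, 3, 3 and 4 in TAC-LVH, and 2, 0, 1 and 1 in Sham-HF against 11, 8, 12 and 14 in TAC-HF. Without the low count filter its rise was called at 8 weeks (log2 fold change 3.09, SE 0.656, edgeR adjusted p = 9.23e-05) and not at 2 weeks (3.00, adjusted p = 0.0519).

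Xirp2, a Xin-repeat actin-binding protein of the intercalated disc and Z-disc (myomaxin), stood at 2974, 1574, 1875 and 2729.9 CPM in TAC-LVH against 624, 695, 659.8 and 641 CPM in Sham-LVH. In the 8-week cohort it was at 2674, 2562, 2448 and 3882 CPM in TAC-HF and 1002, 585, 723 and 627 CPM in Sham-HF. The TAC hearts spread widely, yet the lowest lay above every sham heart. The rises were 1.81 (SE 0.182, adjusted p = 1.29e-05) and 1.98 (SE 0.199, adjusted p = 9.37e-05). Its relative Xirp1 (Xin) was not called at either time (0.23, adjusted p = 0.367, and 0.28, adjusted p = 0.751). Xirp1 stood at 218, 281, 414 and 370.3 CPM in TAC-HF and 587, 117, 201 and 150.4 CPM in Sham-HF, and only Sham-HF replicate 1 overlapped the TAC hearts. Without that library its 8-week change was 1.03 (adjusted p = 0.0258). Nrap, a nebulin-related anchoring protein of the intercalated disc, was at 604, 612, 543 and 591 CPM in TAC-HF against 402, 359.9, 373 and 398 CPM, a rise of 0.62 (SE 0.0815, adjusted p = 9.72e-05) with no overlap. At 2 weeks Nrap stood at 328, 287, 299.6 and 378 CPM against 291, 268, 253 and 264 CPM, and its change of 0.27 did not pass the threshold (adjusted p = 0.0764). DESeq2 (adjusted p = 0.0364), edgeR with all 24 libraries in 1 fit (adjusted p = 0.0313) and edgeR with the replicate block (adjusted p = 0.0305) called it.

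**Figure D3:**
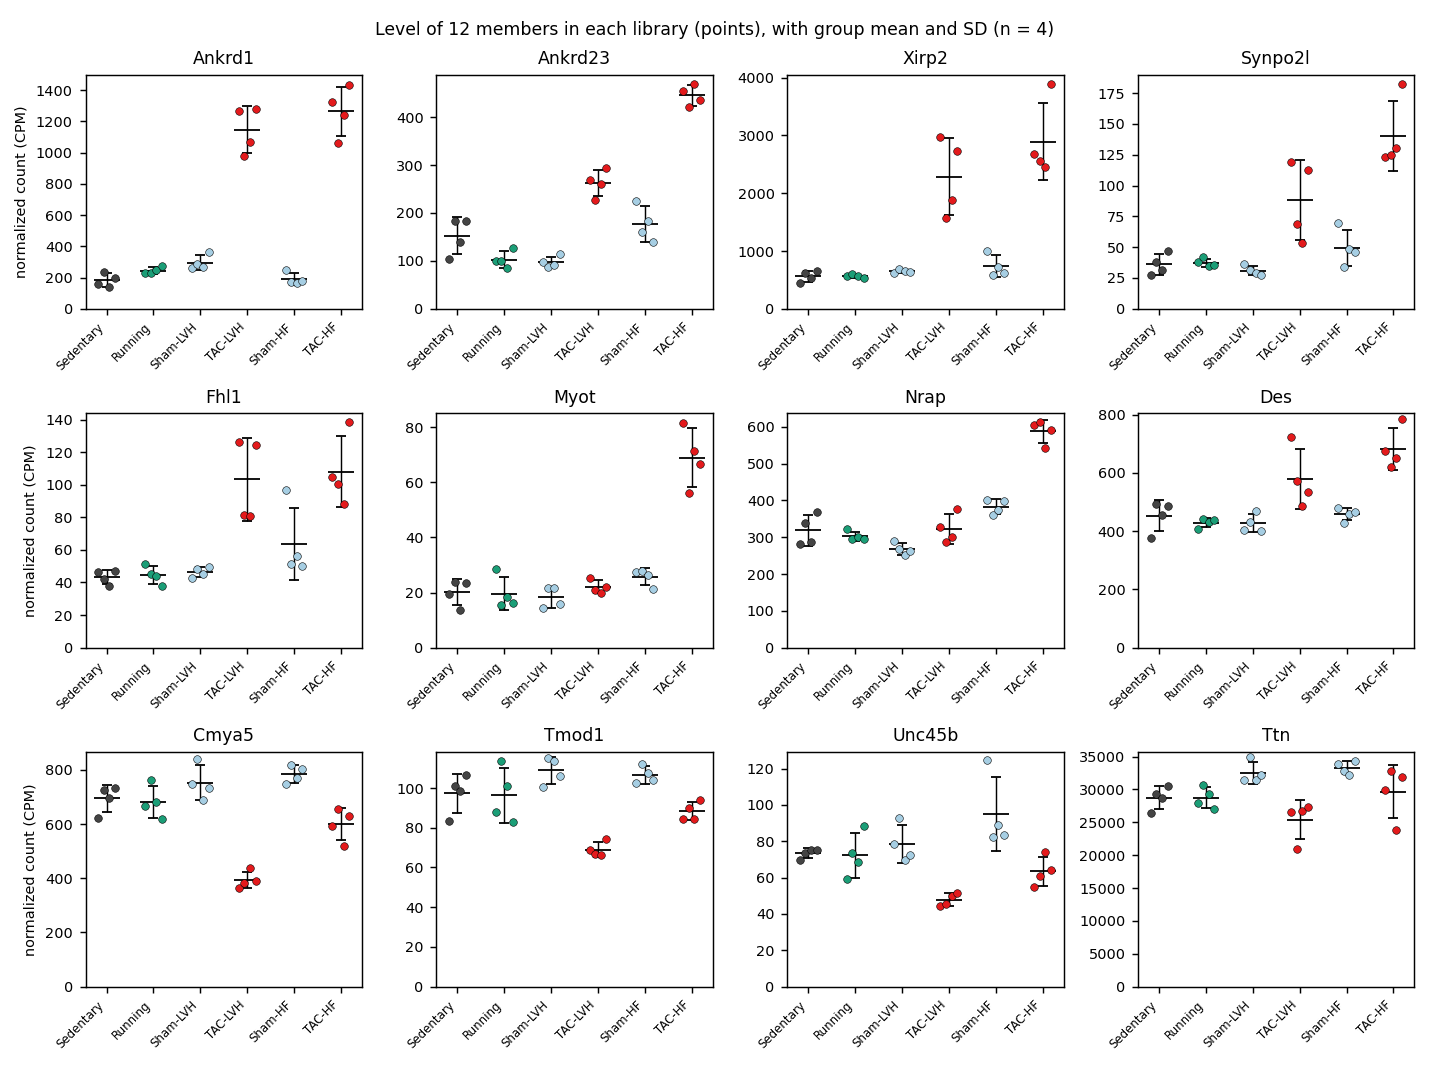
Normalized level (CPM, linear axes from 0) of 12 members in each of the 24 libraries (points), with group means and SD bars (n = 4). Ankrd1, Ankrd23, Xirp2 and Synpo2l are higher in every TAC heart than in the sham hearts of its cohort, Myot and Nrap mainly in TAC-HF, Cmya5, Tmod1 and Unc45b are low in the TAC hearts, and 1 Sham-HF library is high for Fhl1 and Unc45b.

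Of the 16 Z-disc genes 5 rose and 5 fell at 2 weeks, and 7 rose and 1 fell at 8 weeks. Synpo2l, the cytoskeletal protein CHAP of the Z-disc, was at 119, 68.5, 53.4 and 112 CPM in TAC-LVH against 36.1, 31.8, 28.7 and 27.3 CPM, and at 123, 124, 131 and 182 CPM in TAC-HF against 69.2, 34.1, 48.3 and 46.4 CPM. It rose by 1.52 (SE 0.238, adjusted p = 0.000844) and 1.501 (SE 0.217, adjusted p = 0.00131), without overlap. Its relative Synpo2 (myopodin) was not called (at 2 weeks it was without Sham-LVH replicate 3, -0.28, adjusted p = 0.0441), with values of -0.23 and -0.14 and levels of 37.5 to 48.6 CPM in TAC-LVH and 45.6 to 53.8 CPM in Sham-LVH. Fhl1, a LIM-domain protein that binds titin's N2B region, stood at 126, 81.6, 80.8 and 124 CPM in TAC-LVH against 42.7, 48.5, 45.3 and 49.2 CPM, a 2.23-fold rise (SE 0.15 on the log2 scale, adjusted p = 9.04e-05). At 8 weeks Fhl1 stood at 105, 100.4, 88.0 and 139 CPM against 96.5, 51.6, 56.4 and 50.1 CPM, where Sham-HF replicate 1 overlapped the TAC hearts. That rise was 0.76 (SE 0.238, adjusted p = 0.0446). It became 1.02 (adjusted p = 0.000124) without Sham-HF replicate 1, and leaving out any other of the 8 libraries ended the call (adjusted p 0.0715 to 0.0979), as did testing without the low count filter (adjusted p = 0.113). Fhl2, a related LIM protein, went the other way at 2 weeks (-0.39, adjusted p = 0.0384, groups overlapping), a call lost on leaving out any of 6 of the 8 libraries, and was at 0.08 at 8 weeks (not called).

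Myot, which codes for the Z-disc protein myotilin, rose at 8 weeks. In TAC-HF it was at 81.6, 56.2, 71.5 and 66.7 CPM against 27.5, 27.8, 26.5 and 21.4 CPM in Sham-HF, 2.67-fold (log2 1.42, SE 0.117, adjusted p = 3.05e-06). At 2 weeks it was at 25.4, 21.1, 20.0 and 22.2 CPM against 14.2, 21.7, 21.6 and 15.7 CPM and was not called (0.29, adjusted p = 0.125, or 0.38 and 0.0434 without Sham-LVH replicate 3). Csrp3, the muscle LIM protein, likewise rose at 8 weeks (0.56, SE 0.117, adjusted p = 0.00293) and was at 0.24 at 2 weeks (not called). Myoz2 (calsarcin 1) rose by 0.49 (adjusted p = 0.00177) and Pdlim5 by 0.48 (adjusted p = 0.00333) at 8 weeks, and neither was called at 2 weeks (Pdlim5 was, at 0.36 and adjusted p = 0.0498, without Sham-LVH replicate 2). In TAC-HF and Sham-HF, Csrp3 ranged over 425 to 548 and 285 to 399 CPM, Myoz2 over 256 to 336 and 199 to 216 CPM and Pdlim5 over 273 to 332 and 183 to 254 CPM, none of them overlapping. That a gene was called at 1 time only does not show that its effects differed, and only Myot among these 4 passed the test of the difference given further on.

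The PDZ-LIM genes, whose products tie alpha-actinin to signalling proteins, moved in both directions: Pdlim1, Pdlim3, Pdlim5 and Pdlim7 rose at 1 or both times, and Ldb3 fell at 2 weeks. Pdlim1 was at 19.4, 19.6, 19.1 and 24.3 CPM in TAC-LVH against 11.9, 16.0, 13.4 and 13.1 CPM, and at 22.7, 24.2, 24.7 and 22.4 CPM in TAC-HF against 16.3, 17.6, 13.8 and 13.4 CPM. Its rises of 0.61 (adjusted p = 0.000872) and 0.62 (adjusted p = 0.000433) were of nearly the same size, without overlap. Pdlim7 (enigma) stood at 8.92, 9.01, 7.41 and 9.80 CPM against 5.94, 5.92, 6.69 and 4.68 CPM at 2 weeks, a rise of 0.61 (SE 0.128, adjusted p = 0.00241). It was not called at 8 weeks (0.30, adjusted p = 0.1), but was at 0.39 (adjusted p = 0.0401) without Sham-HF replicate 1. Pdlim3 (ALP), at 5.68, 6.89, 4.49 and 7.04 CPM in TAC-LVH and 2.65, 3.91, 4.93 and 2.99 CPM in Sham-LVH, rose by 0.75 (SE 0.2, adjusted p = 0.0111) although the lowest TAC heart lay below the highest sham heart. Ldb3 (Cypher or ZASP), another PDZ-LIM gene, was at -0.33 at 2 weeks (adjusted p = 0.0222, or 0.0793 without Sham-LVH replicate 2 and 0.0589 without TAC-LVH replicate 2), with -0.02 at 8 weeks (not called).

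Tcap fell most at 2 weeks. Its TAC-LVH values were 113, 202, 165 and 111 CPM and its Sham-LVH values 247, 339.6, 410.2 and 260.5 CPM, a change of -1.08 (SE 0.222, adjusted p = 0.00325) without overlap. At 8 weeks the values were 209, 122, 208 and 149.9 CPM in TAC-HF and 93.4, 226, 142 and 254 CPM in Sham-HF. Those groups overlapped, and the estimate of -0.05 had a 95% interval from -0.90 to 0.79. Nebl (nebulette, the cardiac nebulin that binds thin filaments at the Z-disc) stood at 144, 135, 180.3 and 158 CPM in TAC-LVH against 202, 244, 259 and 218 CPM, and at 166, 152, 152 and 155 CPM in TAC-HF against 189, 221, 212 and 208 CPM. Every TAC heart was below every sham heart of its cohort, with changes of -0.57 (adjusted p = 0.00234) and -0.41 (adjusted p = 0.00191). Actn2 was at 476, 421, 455 and 503 CPM in TAC-LVH against 582, 606, 525 and 581 CPM, a change of -0.30 (SE 0.105, adjusted p = 0.0408). The groups did not overlap, but leaving out any of 7 of the 8 libraries (each but Sham-LVH replicate 3) ended the call, as did testing without the low count filter (adjusted p = 0.0668). At 8 weeks Actn2 stood at 633, 711, 593 and 661 CPM against 653, 681, 660.0 and 702 CPM and was not called (-0.05, adjusted p = 0.674). Flnc (filamin C) was not called at either time (0.55, adjusted p = 0.0613, and 0.59, adjusted p = 0.0761). At 2 weeks DESeq2 called it (0.54, adjusted p = 0.0256), as did edgeR without TAC-LVH replicate 2 (0.65, adjusted p = 0.0364) or replicate 3 (0.67, adjusted p = 0.0164). At 8 weeks 1 control decided the call: Sham-HF replicate 1 had 514 CPM, TAC-HF 440.1 to 632 CPM and the other shams 262 to 317 CPM, and without it Flnc was at 0.83 (adjusted p = 0.000376). All 24 libraries in 1 fit also called it (0.59, adjusted p = 0.0404).

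Titin itself, the filament on which these proteins assemble, was not called at either time. Ttn stood at 26509, 21008, 26696 and 27340.0 CPM in TAC-LVH and 31411, 34970.0, 31370.0 and 32186 CPM in Sham-LVH, where every TAC heart lay below every sham heart, with a change of -0.35 (SE 0.134, adjusted p = 0.0596). DESeq2 called the same change (-0.36, adjusted p = 0.00224), and leaving out TAC-LVH replicate 1 did so in edgeR (-0.37, adjusted p = 0.0388). So did edgeR with all 24 libraries in 1 fit (-0.36, adjusted p = 0.00737) and with the replicate block (-0.36, adjusted p = 0.043). At 8 weeks Ttn was at 29923, 32836, 23893 and 31921 CPM against 33825, 32862, 32180.0 and 34362 CPM (-0.17, adjusted p = 0.24), with 1 TAC heart well below the rest. Mybpc3 stood at 1356, 1372, 1249 and 1374 CPM in TAC-HF against 1031, 1034, 1019.9 and 1173 CPM and rose by 0.33 (SE 0.0843, adjusted p = 0.00936) without overlap. At 2 weeks its values of 930.4, 917, 949 and 1018 and 1074, 1007, 962 and 884 CPM in TAC-LVH and Sham-LVH overlapped (-0.03, 95% interval -0.27 to 0.20).

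The obscurin-family kinase gene Speg and the obscurin-like gene Obsl1 moved down. Speg stood at 65.7, 91.0, 53.1 and 94.1 CPM in TAC-HF against 128, 107, 116 and 126 CPM, a change of -0.65 (SE 0.162, adjusted p = 0.0129). Without the low count filter it was not called (-0.62, adjusted p = 0.0591). At 2 weeks it was at 61.1, 46.4, 43.6 and 50.9 CPM against 97.4, 68.2, 50.3 and 71.2 CPM (-0.50, adjusted p = 0.0436). The 2-week groups overlapped, and that call was lost without the low count filter (adjusted p = 0.0822) and on leaving out any of 6 of the 8 libraries. Obsl1 was at 29.8, 32.4, 24.5 and 33.2 CPM in TAC-HF and 39.2, 39.2, 39.5 and 43.3 CPM in Sham-HF, a change of -0.43 (SE 0.096, adjusted p = 0.00444), and was not called at 2 weeks (-0.23, adjusted p = 0.18, or -0.33 and 0.0466 without Sham-LVH replicate 3). Des, Speg and Obsl1 lie near each other on mouse chromosome 1 (GRCm38.p6: Des at chr1:75360292-75368579, Speg at chr1:75375297-75432320, Obsl1 at chr1:75485825-75506486). At 8 weeks Des rose while the other 2 fell. It was at 724, 572, 488 and 533 CPM in TAC-LVH against 406, 432, 469 and 402 CPM, and at 674, 619, 650.0 and 784 CPM in TAC-HF against 478, 429, 459 and 465 CPM. The rises of this muscle intermediate filament gene were 0.44 (SE 0.129, adjusted p = 0.0165, or 0.0516 without Sham-LVH replicate 4) and 0.58 (SE 0.0896, adjusted p = 0.000352), without overlap. The filament gene Synm (synemin, 0.20 and 0.09) and the costamere gene Vcl (vinculin, -0.01 and -0.10) were not called, but Synm at 2 weeks was at 0.42 (adjusted p = 0.0229) without Sham-LVH replicate 1. In TAC-LVH and Sham-LVH, Synm ranged over 6.62 to 8.78 and 5.26 to 9.13 CPM and Vcl over 67.6 to 81.8 and 72.0 to 77.9 CPM. The costamere gene Tln2 (talin 2) fell at 2 weeks (-0.32, adjusted p = 0.019, or 0.0629 without Sham-LVH replicate 4 and 0.0636 without TAC-LVH replicate 2). At 8 weeks Tln2 was at -0.21 (adjusted p = 0.137).

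Of the 4 M-band genes 1, Cmya5, fell at each time. Cmya5 (myospryn, a large TRIM-related protein) was at 363, 383, 436 and 391 CPM in TAC-LVH against 749, 841, 691 and 732 CPM, and at 593, 657, 521 and 629 CPM in TAC-HF against 749, 820.2, 769 and 803 CPM. It fell by 0.93 (SE 0.111, adjusted p = 4.03e-05) and 0.39 (SE 0.0893, adjusted p = 0.00504) on the log2 scale, without overlap. Its exons share 20.7% of their bases with an antisense gene that is not in the count table. The myomesin genes Myom1, Myom2 and Myom3, which crosslink the myosin filaments, were not called in either TAC comparison, with values between -0.07 and 0.24. DESeq2 called Myom1 at 8 weeks (0.21, adjusted p = 0.0407), as did edgeR without TAC-HF replicate 3 (0.26, adjusted p = 0.0181), and Myom2 was called at 2 weeks without Sham-LVH replicate 1 (0.31, adjusted p = 0.0453). Myom1 ranged over 547 to 671 CPM in TAC-LVH and 624.7 to 681 CPM in Sham-LVH, Myom2 over 318 to 356 and 248.7 to 342 CPM, and Myom3 over 0.766 to 1.48 and 0.558 to 1.36 CPM.

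Of the 3 genes whose products cap or extend the pointed ends of the thin filaments, 2 fell at 2 weeks, and 1 rose and 1 fell at 8 weeks. Tmod1 (tropomodulin 1) stood at 68.8, 66.7, 66.2 and 74.4 CPM in TAC-LVH against 101, 115, 113 and 106 CPM, and at 84.5, 90.00, 84.5 and 93.8 CPM in TAC-HF against 102, 112, 108 and 104 CPM. Its changes of -0.65 (SE 0.0896, adjusted p = 0.000122) and -0.27 (SE 0.0764, adjusted p = 0.0152) were without overlap. The second was not called without TAC-HF replicate 1 (adjusted p = 0.0579). Lmod3 (leiomodin 3) was at 18.0, 19.0, 23.3 and 23.5 CPM in TAC-LVH against 29.7, 29.4, 31.1 and 29.7 CPM, a change of -0.51 (SE 0.0995, adjusted p = 0.00149), and was not called at 8 weeks (0.13). Lmod2, the leiomodin that lengthens cardiac thin filaments, rose by 0.33 (adjusted p = 0.0351) at 8 weeks with overlapping groups, and this call was lost on leaving out any of 6 of the 8 libraries.

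Both helpers of myosin assembly fell at 2 weeks. Unc45b, a myosin chaperone, stood at 44.4, 45.5, 49.99 and 51.7 CPM in TAC-LVH against 78.7, 93.1, 69.7 and 72.5 CPM, and at 54.7, 60.7, 74.1 and 64.2 CPM in TAC-HF against 125, 82.3, 89.1 and 83.6 CPM. Its changes were -0.70 (SE 0.104, adjusted p = 0.00021) and -0.58 (SE 0.136, adjusted p = 0.00721), the second becoming -0.43 (adjusted p = 0.00721) without the high Sham-HF replicate 1. Smyd1, a muscle methyltransferase that works with the chaperones of myosin, was at 94.7, 99.8, 114 and 114 CPM in TAC-LVH against 144, 168, 185 and 150.4 CPM (-0.61, SE 0.112, adjusted p = 0.000958). At 8 weeks its values were 149, 138, 149.9 and 143 CPM in TAC-HF and 149.8, 147, 147 and 150.2 CPM in Sham-HF, a difference of -0.03 (95% interval -0.19 to 0.12).

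Across the 2 TAC comparisons, which share no library, 7 members rose at both times (Ankrd1, Ankrd23, Des, Fhl1, Pdlim1, Synpo2l and Xirp2) and 5 fell at both (Cmya5, Nebl, Speg, Tmod1 and Unc45b). The same was true of 8.79% and 8.53% of the 13542 genes tested in both. No member was called in opposite directions, beside 0.111% of all genes. 9 members were called at neither time: Flnc, Myom1, Myom2, Myom3, Synm, Synpo2, Ttn, Vcl and Xirp1. The estimates had the same sign in 33 of 38 members and in 9722 of 13542 genes, and Spearman's rho between the comparisons was 0.853 across the members and 0.643 across all genes. These are descriptions across genes, which are not independent replicates, and the members were not compared with genes at similar levels.

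The effect of TAC at 8 weeks minus that at 2 weeks was tested as a contrast over the 16 TAC and sham libraries. It was above 0 for 4 members and below 0 for 0, beside 1.36% of 14463 genes called in either direction (0.933% above and 0.422% below). Myot differed by 1.136 (SE 0.196, edgeR adjusted p = 0.0148), Lmod3 by 0.64 (adjusted p = 0.037), Smyd1 by 0.58 (adjusted p = 0.0355) and Cmya5 by 0.55 (adjusted p = 0.0464). Myot thus rose more at 8 weeks, Cmya5 fell less, and Lmod3 and Smyd1 fell at 2 weeks and were not called at 8 weeks. Leaving out each of the 16 libraries in turn left between 1 and 7 members called: Myot was called in all 16 of these fits, while Lmod3 was lost in 10, Smyd1 in 12 and Cmya5 in 13. Without Sham-HF replicate 1, Myot was still called (adjusted p = 0.0334) and Lmod3, Smyd1 and Cmya5 were no longer called (adjusted p 0.0706, 0.0591 and 0.0857).

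**Figure D4:**
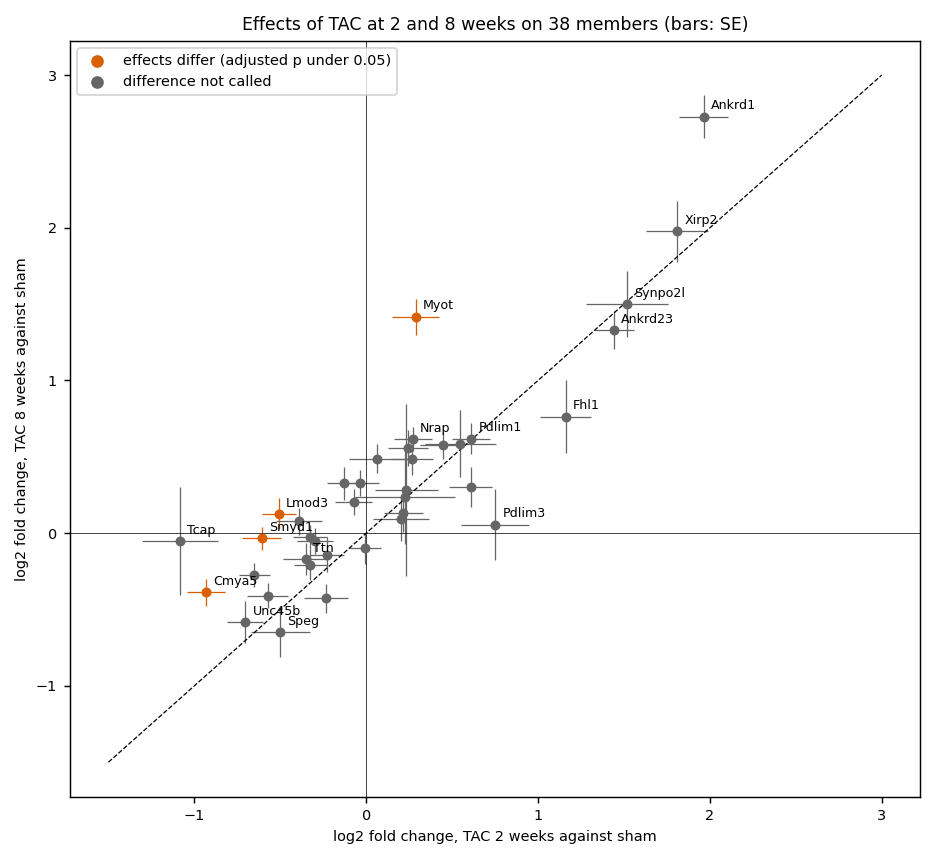
Log2 fold change of 38 members after TAC at 2 weeks (x axis) and at 8 weeks (y axis), each against its sham group (bars: SE, dashed line: equal change). Ankrd1, Xirp2, Synpo2l and Ankrd23 lie at the upper right, Ankrd1 above the line (1.96 at 2 weeks and 2.73 at 8 weeks, difference not called), and the 4 orange points, Myot, Lmod3, Smyd1 and Cmya5, are those whose effects differed (adjusted p under 0.05).

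The control groups of the 2 surgery cohorts were themselves not alike. Sham-HF was higher than Sham-LVH in 5 members, Ankrd23 (0.87), Speg (0.73), Myom2 (0.63), Obsl1 (0.60) and Nrap (0.51), and lower in 2, Ankrd1 (-0.63) and Lmod3 (-0.62), with adjusted p between 0.00741 and 0.0372 (edgeR). That was 18.4% of the members beside 3.64% of 13656 genes (2.2% higher and 1.44% lower). Leaving out 1 library at a time gave 3 to 8 called members. For Lmod3, whose TAC-LVH and TAC-HF means were close (20.9 and 21.3 CPM), the sham means were 30.0 and 19.6 CPM. Surgery cohort, age and time after surgery cannot be told apart here.

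In running hearts 0 of the 38 members were called against Sedentary, and 0% of 13824 genes were (edgeR). At an unadjusted p under 0.05 there were 3 members higher and 3 lower, 6 of 38, beside 4.81% of all genes, and DESeq2 called 0 members and 7 genes. The 95% interval of the fold change lay within 2-fold in either direction for 37 of the 38 members (all but Tcap) and within 1.5-fold for 33. Obsl1 had the smallest p, with 31.8, 33.9, 32.3 and 37.9 CPM in Running and 40.8, 40.7, 49.2 and 45.7 CPM in Sedentary (-0.37, adjusted p = 0.858). Tcap stood at 245, 337, 320.0 and 238 CPM in Running and 213, 176, 112 and 195 CPM in Sedentary (0.71, SE 0.192, adjusted p = 0.871). For these 2 genes the groups did not overlap, as for 1.48% of all genes in each direction, but neither passed the adjustment.

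The next 3 by p overlapped between the groups. Ankrd23 was at 99.8, 99.4, 84.3 and 127 CPM in Running and 104, 183, 139 and 183 CPM in Sedentary (-0.56, adjusted p = 0.953). Ankrd1 was at 230.0, 229, 246 and 275 CPM in Running and 158, 238, 143 and 199 CPM in Sedentary (0.41, adjusted p = 0.957). Lmod2, which was the last of the 5, was at 152, 128, 140.3 and 129 CPM in Running and 124, 103, 92.6 and 128 CPM in Sedentary (0.30, adjusted p = 1). Ttn, at 28016, 30650.0, 29351 and 26995 CPM in Running and 26412, 29320.0, 28680.0 and 30517 CPM in Sedentary, had an estimate of 0.00 with a 95% interval from -0.17 to 0.17. Of the other members named above, Xirp2 was at 573, 609, 572 and 529 CPM in Running and 449, 626, 525 and 647 CPM in Sedentary. Nrap was at 321, 296, 299.9 and 295 CPM in Running and 282, 339, 287 and 368 CPM in Sedentary. In both genes the 2 groups overlapped, and the sedentary hearts spread more widely than the runners. Des was at 407, 441, 431 and 437 CPM in Running and 375, 492.9, 457 and 487 CPM in Sedentary. Actn2 was at 603, 624.6, 626 and 626 CPM in Running and 590.1, 690.2, 609 and 661 CPM in Sedentary. Mybpc3 was at 888, 1059.8, 1042 and 1074 CPM in Running and 843, 1232, 1185 and 1058 CPM in Sedentary. All 3 overlapped between the groups. The intervals of Actn2 (-0.22 to 0.14), Des (-0.29 to 0.14), Mybpc3 (-0.34 to 0.17), Nrap (-0.29 to 0.14) and Xirp2 (-0.22 to 0.27) all held 0.

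The effects of TAC and of running were compared directly as contrasts over 16 libraries each. At 2 weeks the TAC effect exceeded the running effect in 8 members and was below it in 7, beside 19.1% of 14729 genes in either direction (9.5% above and 9.56% below). Ankrd23 (2.01, SE 0.223, adjusted p = 5.85e-06), Xirp2 (1.78, adjusted p = 2.14e-05) and Ankrd1 (1.55, adjusted p = 3.59e-05) had the smallest p among the higher, followed by Fhl1 and Pdlim7. Tcap had the widest gap in the other direction (-1.80, SE 0.325, adjusted p = 0.00117), being lower after TAC and, without passing its test, higher in the runners. Cmya5 (-0.91, adjusted p = 0.000143), Tmod1 (-0.64), Unc45b (-0.69) and Smyd1 (-0.59) were also lower. The running values behind these differences overlapped with the sedentary ones for Fhl1, Pdlim7, Cmya5, Tmod1, Unc45b and Smyd1. Fhl1 was at 51.1, 45.3, 43.8 and 38.02 CPM in Running and 46.6, 42.4, 37.9 and 46.9 CPM in Sedentary, and Pdlim7 was at 9.63, 6.73, 6.61 and 8.38 CPM in Running and 8.65, 9.00, 9.79 and 10.1 CPM in Sedentary. Cmya5, the gene with the smallest p among the lower, was at 667, 762, 682 and 621 CPM in Running and 624, 724, 696 and 734 CPM in Sedentary. Tmod1 was at 87.7, 113, 101 and 82.9 CPM in Running and 83.5, 101, 98.5 and 106 CPM in Sedentary. The runners covered the wider range in Tmod1, as they did in both genes of myosin assembly. Unc45b was at 59.0, 73.3, 68.4 and 88.4 CPM in Running and 69.4, 73.7, 75.1 and 75.4 CPM in Sedentary. Smyd1 was at 117, 145, 141 and 120.3 CPM in Running and 122, 136, 134 and 142 CPM in Sedentary. At 8 weeks the TAC effect exceeded the running effect in 9 members and was below it in 0, beside 11.1% of 14252 genes (5.74% above and 5.35% below). Ankrd1 (2.32, SE 0.218, adjusted p = 2.79e-06) had the smallest p, followed by Xirp2 (1.96), Ankrd23 (1.905), Nrap (0.70) and Myot (1.47), which was at 28.5, 15.4, 18.2 and 16.3 CPM in Running and 19.4, 23.9, 13.8 and 23.3 CPM in Sedentary. Without Sham-HF replicate 1 the counts were 14 higher and 1 lower.

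For genes of the same structures outside the members, counts are read against the 33.2% of all genes called at 2 weeks and the 29.6% called at 8 weeks. Of 31 tested further Z-disc and sarcomere genes 13 rose and 8 fell at 2 weeks, and 10 rose and 5 fell at 8 weeks (67.7% and 48.4% called). Among them Mybpc2, the fast skeletal myosin binding protein C, rose by 1.56 (adjusted p = 5.73e-06) and 1.126 (adjusted p = 7.27e-06), Csrp2 by 1.63 at 2 weeks, and Fhod3, a formin of cardiac sarcomeres, fell by 0.80 and 0.69. Of 26 genes of the costamere, dystrophin complex and integrin link 8 rose and 8 fell at 2 weeks, and 6 rose and 2 fell at 8 weeks (61.5% and 30.8% called), with Sgca (alpha-sarcoglycan) at -0.93 (adjusted p = 2.21e-05) and -0.41 (adjusted p = 0.00308) and Itgb1 at 0.49 and 0.44. Of 24 sarcomere chaperone and turnover genes 2 rose and 6 fell at 2 weeks (33.3% called, near the share of all genes), among the latter the muscle RING finger genes Trim63 (-0.54), Trim54 (-0.48) and Trim55 (-0.48). At 8 weeks 4 of these 24 rose, Hspb8 (0.62, adjusted p = 0.00117) with the smallest p, and 1 fell, Trim55 (-0.34), or 20.8% of the list. In running 0 genes of these 3 lists were called. As reference, Acta1 (skeletal alpha-actin, which rises in loaded hearts) was at 3.09 and 4.73 after TAC, and Myh6 (the adult cardiac myosin heavy chain) at -1.02 and -0.79.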

How the data were processed

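Total RNA of 24 mouse hearts was sequenced, and the authors deposited estimated counts per gene for each library. Per the submitters' processing notes FastQC, Salmon and the mm9 build were used. The sources used here give no tool version, annotation or strand setting. The expected counts were rounded, and 1 row naming no gene (0 counts) was left out. Genes passing filterByExpr were tested with edgeR 4.0.16 (TMM, robust quasi-likelihood, R 4.3.3) within the groups compared, with Benjamini-Hochberg adjustment over all genes. Alternatives were DESeq2 1.42.0, other scalings and filters, a replicate block and leaving out each library. The fits were tested on simulated data. No block was used, because the labels do not say that a replicate number marks a shared animal, litter or day. Same-number correlations in running were 0.34, 0.22, 0.08 and 0.04, which cannot exclude a pairing. Levels per kb used merged GENCODE exons of GRCm38 matched by identifier. Values per library are given for the 8 called members with the largest change in each direction after TAC, the 5 with the smallest p in running and in each direction of each difference of effects, and Ttn, Actn2, Mybpc3, Des, Ankrd1, Xirp2 and Nrap. Genes outside the members were named from up to 4 per list by p. Members, lists and tests were chosen with earlier results of these data known. Counts carry no molecular identifiers, so depth limits cover counting error only.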

Additional observations from a re-analysis of the deposited data

Results flagged for a closer look

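In 15 of 228 groups of 4 libraries, or 6.58%, the highest or lowest library lay further from the next than Dixon's 95% critical value allows, and chance alone flags about 1 group in 20. Sham-HF replicate 1 gave 4 of the 15, each at the high end: Fhl1 at 96.5 CPM, Ankrd1 at 252 CPM, Unc45b at 125 CPM and Myom1 at 759 CPM. In Sham-HF replicate 4 Mybpc3 was high at 1173 CPM and Obsl1 at 43.3 CPM. In TAC-HF replicate 4 Xirp2 was high at 3882 CPM and Synpo2l at 182 CPM, while in TAC-HF replicate 3 Mybpc3 was low at 1249 CPM. In TAC-LVH, Ttn was low in replicate 2 at 21008 CPM and Pdlim1 high in replicate 4 at 24.3 CPM. In Running, Mybpc3 (888 CPM) and Actn2 (603 CPM) were low in replicate 1 and Speg high in replicate 4 (128 CPM). In Sham-LVH replicate 3 Synpo2 was low at 45.6 CPM.

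The effects of 2 conditions differed by a test of the difference itself (edgeR adjusted p under 0.05) in 28 cases, given here as differences of log2 fold changes. The TAC effect at 8 weeks exceeded that at 2 weeks for Myot (1.136), Lmod3 (0.64), Smyd1 (0.58) and Cmya5 (0.55). The TAC effect at 2 weeks exceeded the running effect for Ankrd23 (2.01), Xirp2 (1.78), Ankrd1 (1.55), Synpo2l (1.46), Fhl1 (1.121), Pdlim7 (0.87), Pdlim1 (0.63) and Des (0.52), and was below it for Tcap (-1.80), Cmya5 (-0.91), Lmod3 (-0.69), Unc45b (-0.69), Tmod1 (-0.64), Nebl (-0.60) and Smyd1 (-0.59). The TAC effect at 8 weeks exceeded the running effect for Ankrd1 (2.33), Xirp2 (1.96), Ankrd23 (1.91), Myot (1.47), Synpo2l (1.45), Nrap (0.70), Des (0.66), Pdlim1 (0.65) and Csrp3 (0.59). Leaving out 1 library at a time ended the 2-week call of Des against running in 10 fits (edgeR adjusted p 0.0525 to 0.0719). It ended the 8-week call of Csrp3 against running in 10 fits as well (adjusted p 0.0508 to 0.0758).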

How the results depend on the processing

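Relative to the settings of the report, RLE size factors and a fit without the mitochondrial genes changed no member's call in the comparisons of TAC with sham. For the 8-week minus the 2-week effect, RLE size factors ended the call of Cmya5 (0.54, edgeR adjusted p = 0.0503). All 24 libraries in 1 fit ended that of Lmod3 (0.64, adjusted p = 0.0604). Without normalization factors 21 members were higher and 2 lower at 2 weeks (7609 genes in all against 4717), and 24 higher and 0 lower at 8 weeks (6643 against 4032). That setting also gave 0 members for the 8-week minus the 2-week effect, 17 higher and 1 lower for the 2-week effect minus running, and 16 higher for the 8-week effect minus running. It reversed 11 members at 2 weeks, to 0.07 for Ttn, 0.38 for Mybpc3, 0.20 for Obsl1, 0.35 for Myom1, 0.12 for Actn2, 0.09 for Ldb3, 0.20 for Synpo2, 0.01 for Fhl2, 0.29 for Lmod2, 0.42 for Vcl and 0.10 for Tln2. At 8 weeks it reversed 9, to 0.17 for Ttn, 0.28 for Actn2, 0.31 for Ldb3, 0.30 for Tcap, 0.19 for Synpo2, 0.06 for Tmod1, 0.23 for Vcl, 0.13 for Tln2 and 0.30 for Smyd1. DESeq2 called 7 genes in running, 11 members higher for the 8-week minus the 2-week effect, 3 members lower for the 8-week effect minus running, and 13 members between the sham groups. For running, no low count filter gave 2 genes. A covariate splitting the libraries by label number, up to 4 against above 4, gave 1 gene. For the 8-week effect minus running all 24 libraries in 1 fit gave 1 member lower. The cause of these differences between settings was not tested.

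The correlation of same-numbered deviations was -0.17, 0.08, 0.05 and -0.15 in the 8-week cohort. In no cohort did every library correlate best with its own number. In running all same-number values were positive (0.34, 0.22, 0.08 and 0.04), so this check cannot exclude a pairing. With the replicate block 47 genes were called in running, and 12 members were higher and 15 lower at 2 weeks, 13 and 6 at 8 weeks, and 1 was lower for the 8-week effect minus running. The block moved Tcap at 8 weeks to 0.01, called Csrp3, Flnc, Nrap, Obsl1, Synpo2 and Ttn at 2 weeks (adjusted p 0.00518 to 0.0452) and ended the call of Fhl1 at 8 weeks (0.0514).

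Leaving out 1 library at a time gave 0 to 3 genes in running, the highest without Running replicate 4. At 2 weeks it gave 8 to 11 members higher and 7 to 13 lower, with 7 lower without TAC-LVH replicate 2, and at 8 weeks 12 to 18 higher and 5 to 6 lower. The 8-week minus the 2-week effect gave 1 to 7 members higher. The 8-week effect minus running gave 8 to 14 higher, with 14 without Sham-HF replicate 1, and 0 to 2 lower. Between the sham groups it gave 3 to 8 members, with 3 without Sham-LVH replicate 2 or Sham-HF replicate 3 and 4 without Sham-LVH replicate 4 or Sham-HF replicate 4. The sign of 3 members that were not called turned at 2 weeks, Mybpc3 (-0.08 to 0.00), Myoz2 (-0.04 to 0.19) and Vcl (-0.05 to 0.03), and of 2 at 8 weeks, Tcap (-0.28 to 0.15) and Pdlim3 (-0.13 to 0.33). With all libraries of a comparison, Ankrd2 had too few counts to pass the filter. It passed in some fits that left out 1 library, and in those of the 8-week comparison it was called. There it can have passed only through the TAC-HF hearts, in which it is high, so those calls add no support.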
